A study of Mus musculus with 31 samples.

Results

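The expression of 10 genes of the tumour necrosis factor (TNF) system was followed in colon RNA: the ligand genes Tnf, Lta, Ltb, Fasl and Tnfsf10 and the receptor genes Tnfrsf1a, Tnfrsf1b, Ltbr, Fas and Tnfrsf10b. They were chosen by symbol, and all 10 of 10 were found among the 27623 genes of the deposited table. Total RNA of mouse colon was sequenced at day 7 after induction in 31 libraries. DHO libraries (n = 10) came from mice in which a Tradd IEC-KO was added to TAK1 IEC-KO and Ripk1 D138N/D138N, HO libraries (n = 10) from TAK1 IEC-KO Ripk1 D138N/D138N mice, and WT libraries (n = 11) from Tak1 f/f Ripk1 D138N/D138N mice. IEC denotes intestinal epithelial cells, so that DHO lacked TAK1 and TRADD in these cells, HO lacked TAK1 there, and WT kept its floxed Tak1 alleles. Every group, WT included, carried the Ripk1 D138N/D138N mutation, which inactivates the kinase of RIPK1. The question named by the study is the role of TRADD in colitis when epithelial TAK1 is missing. Sources used here give no Cre driver, inducing agent or age. Whether libraries come from separate animals is not stated, and p-values therefore describe the spread among libraries, which may be technical.

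TNF binds TNFR1 (Tnfrsf1a), which most cells carry and whose death domain recruits the adaptor TRADD and the kinase RIPK1, and TNFR2 (Tnfrsf1b), which is found mainly on leukocytes and has no death domain. TAK1 links TNFR1 to NF-kB and MAP kinase signalling, and cells without it can die when TNF binds. Lymphotoxin alpha (Lta) also binds both TNF receptors, whereas lymphotoxin alpha and beta (Ltb) together bind the lymphotoxin beta receptor (Ltbr), which organises gut lymphoid tissue. Fas ligand (Fasl), a product of cytotoxic lymphocytes, and TRAIL (Tnfsf10), an interferon-induced ligand, bind the death receptors Fas and, in mice, DR5 (Tnfrsf10b).

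The 10 genes lie at 7 places of the GRCm38 genome (the assembly also called mm10). Ltb (chromosome 17, 35194507 to 35196305, plus strand), Tnf (35199367 to 35202007, minus strand) and Lta (35203165 to 35205578, minus strand) form 1 cluster of 11072 bases. Between the genes of this cluster lie 3062 bases (Ltb to Tnf) and 1158 bases (Tnf to Lta). Ltbr (chromosome 6, 125306571 to 125313885, minus strand) and Tnfrsf1a (125349723 to 125362483, plus strand) point away from each other with 35838 bases between their starts and Scnn1a, a sodium channel gene, between them. Tnfrsf1b is on chromosome 4 (145212368 to 145246870), Fas on 19 (34290647 to 34327775), Fasl on 1 (161780691 to 161788495), Tnfsf10 on 3 (27317077 to 27339665) and Tnfrsf10b on 14 (69767472 to 69784411).

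The promoters of 5 members are shown: Tnf and Tnfrsf1b, which changed most, Ltb, which lies beside Tnf and changed less, Tnfrsf1a, whose product recruits TRADD, and Tnfsf10, which changed in the opposite direction. Each is the 250 bases before the transcript start in RefSeq (GRCm38.p6), written 5′ to 3′ along the gene, and 9 of the 10 members had an entry in that table. They were searched on both strands for the NF-kB consensus, the AP-1 motif TGANTCA, an interferon regulatory factor (IRF) repeat (GAAA, present 2 times with 2 bases of any kind between), TATAAA and the GC box GGGCGG. Capitals mark matches to any of these but the GC box. The windows are Tnf (chr17:35202008-35202257, minus strand), Ltb (chr17:35194257-35194506, plus strand), Tnfrsf1a (chr6:125349473-125349722, plus strand), Tnfrsf1b (chr4:145246871-145247120, minus strand) and Tnfsf10 (chr3:27316827-27317076, plus strand).
Tnf: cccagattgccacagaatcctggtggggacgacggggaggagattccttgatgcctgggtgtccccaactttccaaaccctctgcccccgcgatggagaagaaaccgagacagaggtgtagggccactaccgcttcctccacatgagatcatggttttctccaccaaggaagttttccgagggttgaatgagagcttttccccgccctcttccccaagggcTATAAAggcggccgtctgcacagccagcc
Ltb: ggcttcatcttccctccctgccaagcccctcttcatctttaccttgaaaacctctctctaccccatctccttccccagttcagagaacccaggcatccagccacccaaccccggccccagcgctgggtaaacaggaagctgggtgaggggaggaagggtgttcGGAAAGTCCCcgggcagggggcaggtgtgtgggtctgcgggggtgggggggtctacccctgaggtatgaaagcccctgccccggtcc
Tnfrsf1a: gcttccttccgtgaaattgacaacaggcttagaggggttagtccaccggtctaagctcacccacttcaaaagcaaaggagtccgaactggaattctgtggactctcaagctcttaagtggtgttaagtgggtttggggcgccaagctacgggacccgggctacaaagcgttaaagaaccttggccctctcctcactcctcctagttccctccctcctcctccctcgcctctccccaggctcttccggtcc
Tnfrsf1b: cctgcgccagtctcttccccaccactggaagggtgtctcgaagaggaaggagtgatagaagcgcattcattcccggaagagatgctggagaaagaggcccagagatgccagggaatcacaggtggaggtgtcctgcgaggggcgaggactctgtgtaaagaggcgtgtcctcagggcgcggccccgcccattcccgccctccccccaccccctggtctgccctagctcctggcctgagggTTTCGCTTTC
Tnfsf10: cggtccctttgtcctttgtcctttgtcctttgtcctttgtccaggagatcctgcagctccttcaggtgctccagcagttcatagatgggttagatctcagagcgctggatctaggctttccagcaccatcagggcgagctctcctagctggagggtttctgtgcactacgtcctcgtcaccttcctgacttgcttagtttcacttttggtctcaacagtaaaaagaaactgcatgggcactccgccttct

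Tnf held TATAAA at position -29 from the transcript start and a GC box at -49. Ltb held the NF-kB consensus at -87, and Tnfrsf1b held the IRF repeat, read on the other strand, at -10 with GC boxes at -67 and -57. Neither Tnfrsf1a nor Tnfsf10 held a match in this window. Among the members not shown, Fas held TGANTCA at -211 and a GC box at -47, Lta held TATAAA at -167, Ltbr held GC boxes at -100 and -8, and Fasl held 1 at -34. Of 32851 RefSeq promoters of the same length, 7.25% held the NF-kB consensus, 6.75% TGANTCA, 2.98% the IRF repeat, 12.4% TATAAA and 32.7% the GC box. These matches are letters in a window and were not measured as sites.

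Levels are in FPKM, fragment counts scaled by gene length and by the size of the library, as the authors deposited them. The low values of each library showed that it held between 30800000 and 40400000 fragments (median 38600000). Tradd, the gene deleted in DHO epithelium, was at 1.36 to 3.89 FPKM in DHO libraries, below the 12.4 to 59.2 FPKM of HO libraries and the 45.9 to 97.5 FPKM of WT libraries. The epithelial deletion of TAK1 cannot be read from Map3k7 in whole tissue (11.4 ± 2.85 FPKM in DHO, 13.5 ± 1.48 in HO and 10.5 ± 1.39 in WT, mean ± SD, n = 10, 10 and 11). Libraries DHO 8 and DHO 9 stood apart from the other DHO libraries, with summed levels of 10 monocyte and macrophage markers of 1998 and 1264 FPKM against at most 488 in the others. HO 2 stood apart in epithelium, with 8007 FPKM summed over 12 epithelial markers against at most 1418 in the other HO libraries. The noncoding gene Gm15564 divided the libraries into 17 under 1 FPKM (6 DHO, 5 HO and 6 WT) and 14 over it (4 DHO, 5 HO and 5 WT, 6.27 to 14.5 FPKM). No label names a batch. DHO 7, 8, 9 and 10 are the 4 DHO libraries over 1 FPKM, and results within each class are given beside the pooled ones.

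In HO colons, against WT, receptor transcripts and Tnf were higher and Tnfsf10 was lower, and in DHO colons, against HO, 6 of the 8 tested genes differed in the opposite direction. The sample comparisons were made with limma on log2(FPKM + 0.5) over all 12812 genes that reached 1 FPKM in at least 10 libraries, with Benjamini-Hochberg adjustment and a threshold of 0.05. Log2 fold changes on this scale understate the change of low genes. Of the 10 members, 8 were tested so, while Lta and Fasl were too low and were compared by permutation. Tnf passed the filter only through HO. All HO libraries reached 1 FPKM of it, but elsewhere only WT 2, DHO 5, DHO 7, DHO 8 and DHO 9 did. Its place in the counts and medians that follow is therefore not independent of its level in HO. With no filter on low values the HO against WT difference in Tnf was 4.20 (limma adjusted p = 6.13e-08). In HO against WT all 8 tested members were called, 7 higher and 1 lower, where 71.4% of all genes were called, 33% higher and 38.4% lower. In DHO against HO 6 of the 8 were called, 1 higher and 5 lower, against 68.7% of all genes, 39% higher and 29.7% lower. In DHO against WT 3 of the 8 were called, all higher, against 21.2% of all genes, 12.5% higher and 8.7% lower. The median log2 fold change of the 8 was 1.51 in HO against WT (all genes -0.06), -1.01 in DHO against HO (all genes 0.10) and 0.53 in DHO against WT (all genes 0.02).

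All libraries of the groups lay apart for 5 of the 8 members in HO against WT, namely Tnf, Tnfrsf1a, Tnfrsf1b, Fas and Tnfrsf10b, each higher. Over all genes tested, 32% lay apart in that comparison, 16.1% with HO higher and 15.9% with HO lower. In DHO against HO, Tnfrsf1a and Fas lay apart, with DHO lower, where 14.7% of all genes did so, 7.27% with DHO higher and 7.39% with DHO lower. In DHO against WT, Tnfrsf1b alone of the 8 lay apart, with DHO higher, where 0.554% of all genes did so, 0.468% with DHO higher and 0.0859% with DHO lower.

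**Figure D1:**
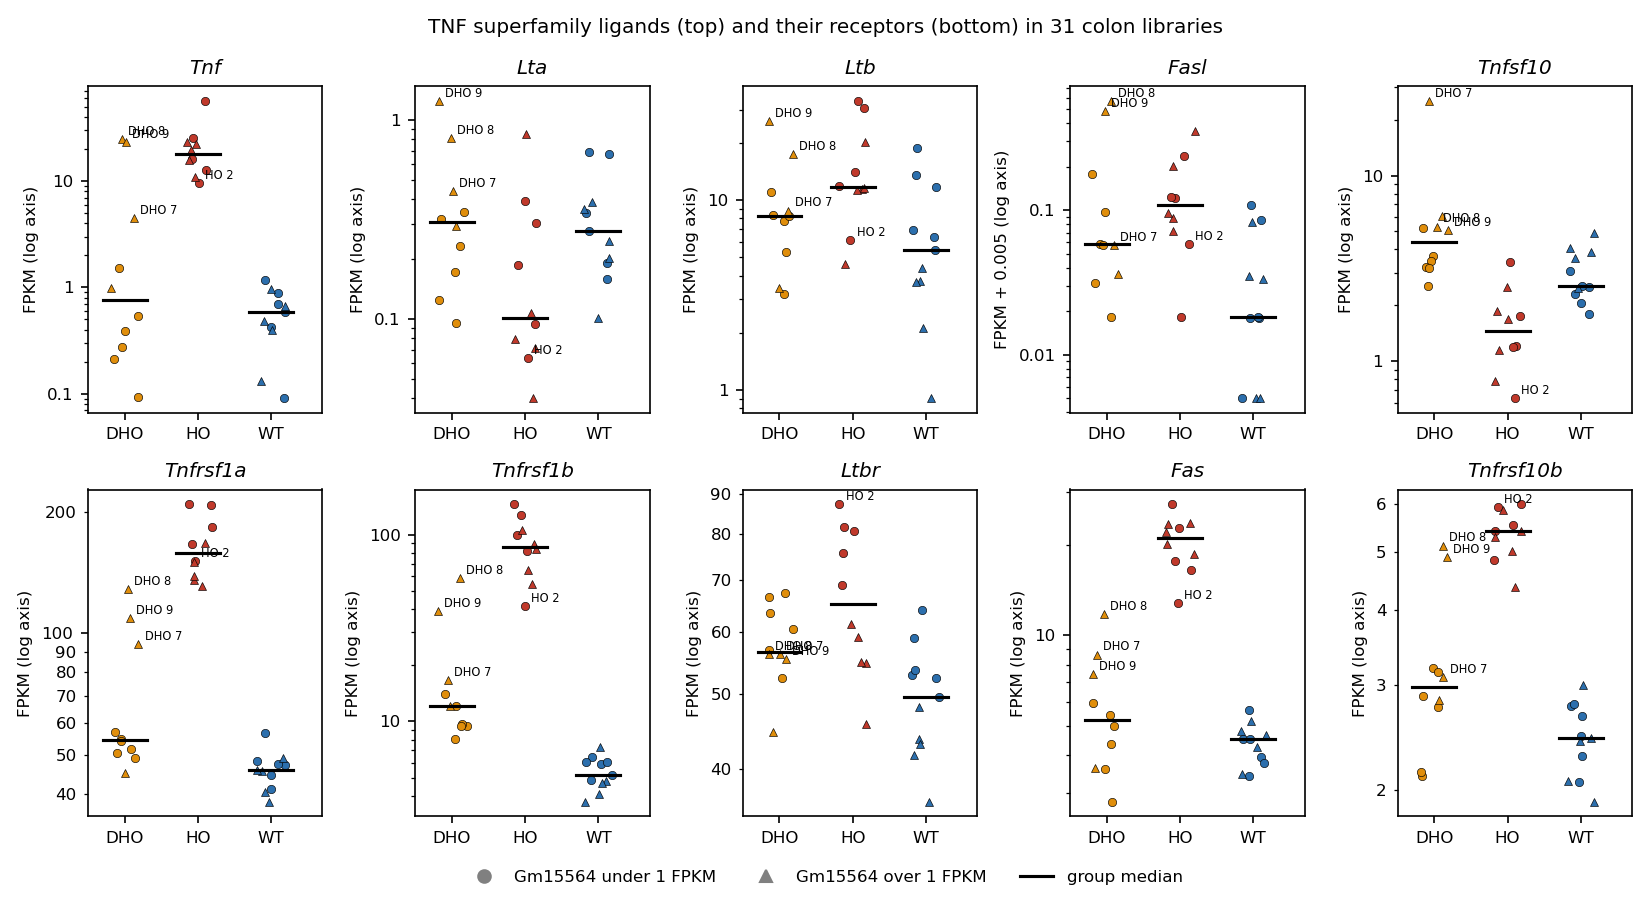
FPKM (log axis) of the 10 members in each of the 31 libraries, by group, with a bar at the group median, circles for libraries under and triangles for libraries over 1 FPKM of Gm15564. Fasl is plotted with 0.005 FPKM added so that 3 WT libraries at 0 can be drawn. Tnf in DHO 8 and DHO 9 (24.7 and 23.3 FPKM) lies among the HO libraries, and Tnfsf10 in DHO 7 (25.3 FPKM) lies above every other library.

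**Figure D2:**
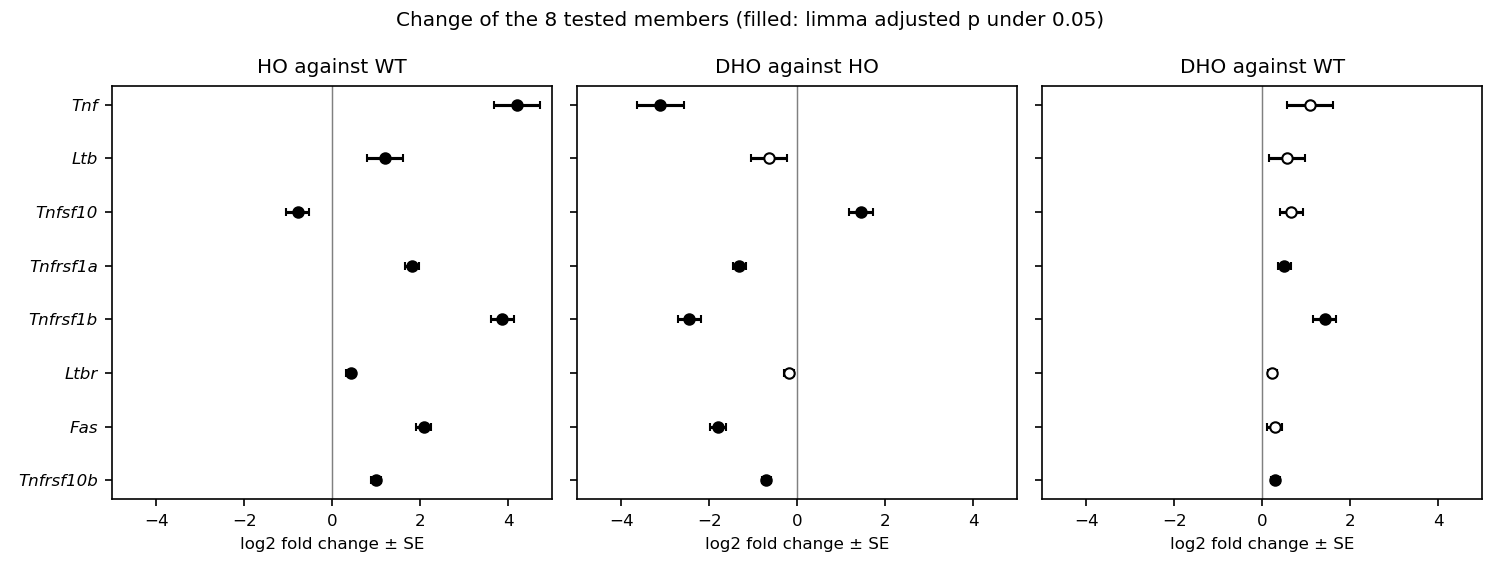
Log2 fold change with its SE for the 8 tested members in the 3 comparisons, filled where the limma adjusted p is under 0.05. Tnfsf10 is the only one of the 8 to the left of 0 in HO against WT and the only one to the right of 0 in DHO against HO.

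Tnf, which passed the filter through its HO levels, had the largest rise of the 8 tested members in HO against WT. It was at 0.0928 to 24.7 FPKM in DHO libraries (median 0.762), at 9.64 to 56.7 FPKM in HO libraries (median 17.9) and at 0.0912 to 1.17 FPKM in WT libraries (median 0.591). All HO libraries lay above all WT libraries, and 8 of the 10 DHO libraries lay below all HO libraries, while DHO 8 (24.7 FPKM) and DHO 9 (23.3 FPKM) lay within the HO range. DHO 7 came next in its group with 4.52 FPKM, above all WT libraries. Tnf rose in HO against WT (log2 fold change 4.20, SE 0.524, limma adjusted p = 2.10e-08), with 4.21 in libraries under and 4.20 in libraries over 1 FPKM of Gm15564. Tnf fell in DHO against HO, with a log2 fold change of -3.11 (SE 0.537, limma adjusted p = 6.56e-06), and with -3.98 (adjusted p = 5.86e-12) without DHO 8 and 9. Within the classes the DHO against HO difference in Tnf was -4.45 (limma adjusted p = 3.43e-08) in libraries under 1 FPKM of Gm15564 and -1.15 (adjusted p = 0.152) in libraries over it. The DHO against WT difference in Tnf was 1.08 (SE 0.524, limma adjusted p = 0.136), or 0.22 without DHO 8 and 9. It was -0.23 (adjusted p = 0.809) in libraries under and 3.04 (adjusted p = 0.00546) in libraries over 1 FPKM of Gm15564.

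Markers of myeloid cells, a main source of TNF, moved with Tnf. Of 10 monocyte and macrophage markers, 9 rose and 1 fell in HO against WT, and 1 rose and 9 fell in DHO against HO. Their summed level was 365 to 1998 FPKM in DHO, 2274 to 5238 in HO and 183 to 467 in WT libraries. All 10 neutrophil markers rose in HO against WT and fell in DHO against HO, and their sum was 0.981 to 4050 FPKM in DHO, 6589 to 54716 in HO and 1.32 to 9.65 in WT libraries. Neutrophil markers near 0 outside HO, such as Ngp (medians 0.0112 FPKM in DHO and 0 in WT), can pass the filter through HO alone. In DHO 7, with 4.52 FPKM of Tnf, the sums were 365 FPKM for monocytes and macrophages and 34.6 FPKM for neutrophils. The part of these cells in the Tnf levels was not tested, and in whole tissue fewer cells of a type cannot be told apart from less RNA per cell. By the root-mean-square difference of centred log2 values over the 31 libraries, the genes most like Tnf among 12181 compared were Icam1 (0.55), Themis2 (0.59) and Mpeg1 (0.62).

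Ltb, the membrane-anchored lymphotoxin and a lymphocyte gene, changed less than its neighbour Tnf. It was at 3.19 to 26.2 FPKM in DHO libraries (median 8.25), at 4.58 to 33.3 FPKM in HO libraries (median 11.7) and at 0.905 to 18.8 FPKM in WT libraries (median 5.44), and the 3 groups overlapped. Ltb rose in HO against WT (log2 fold change 1.204, SE 0.401, limma adjusted p = 0.00854), but with 0.73 (adjusted p = 0.136) in libraries under 1 FPKM of Gm15564 alone it was not called. In libraries over 1 FPKM it was 1.83. The DHO against HO difference in Ltb was -0.64 (SE 0.411, limma adjusted p = 0.168), and without DHO 8 and 9 it was -0.97 (adjusted p = 0.0350). That difference was -1.18 (adjusted p = 0.0204) in libraries under and 0.03 (adjusted p = 0.965) in libraries over 1 FPKM of Gm15564. Ltb was at 0.57 in DHO against WT (SE 0.401, limma adjusted p = 0.323), with -0.45 (adjusted p = 0.610) under and 1.86 (adjusted p = 0.0186) over 1 FPKM. WT libraries themselves differed by class, with 5.44 to 18.8 FPKM of Ltb in the 6 under and 0.905 to 4.38 FPKM in the 5 over 1 FPKM of Gm15564. The share of all genes that lay apart between the classes was not counted.

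DHO 9 (26.2 FPKM) and DHO 8 (17.4 FPKM) held the most Ltb of their group. They also held the highest sums of their group over 8 B cell markers, 231 and 134 FPKM, where DHO libraries spanned 15.2 to 231, HO libraries 1.89 to 164 and WT libraries 6.60 to 89.0 FPKM. Of the B cell markers, 0 rose and 3 fell in HO against WT, and 4 rose and 0 fell in DHO against HO. The share of these cells in the Ltb levels was not tested. The genes most like Ltb were Tbc1d10c (0.32), Acap1 (0.52) and Rasal3 (0.54) by the same distance.

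Lta, the soluble lymphotoxin at the other end of the cluster, was near the limit of the depth. Libraries held 6 to 66 of its fragments in DHO, 2 to 43 in HO and 6 to 45 in WT. Its level was 0.0948 to 1.25 FPKM in DHO (median 0.307), 0.0399 to 0.852 in HO (median 0.101) and 0.102 to 0.694 in WT (median 0.277), and the groups overlapped. The difference in mean log2(FPKM + 0.5) was -0.23 in HO against WT (two-sided permutation test with 100000 resamples, p = 0.158, adjusted over 6 tests 0.237). It was 0.32 in DHO against HO (permutation p = 0.139, adjusted 0.237) and 0.08 in DHO against WT (permutation p = 0.653, adjusted 0.784). In libraries under 1 FPKM of Gm15564 these differences were -0.31, 0.02 and -0.29 in the same order (exact permutation tests, adjusted p = 0.312, 0.879 and 0.312). In libraries over it they were -0.14, 0.75 and 0.61 (exact permutation tests, adjusted p = 0.659, 0.167 and 0.159). Tnf and Lta, which lie 1158 bases apart, thus stood in a different order of groups by their medians: HO was highest for Tnf and lowest for Lta. DHO 9 (1.25 FPKM) and DHO 8 (0.811 FPKM) were the 2 highest DHO libraries in Lta.

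Fasl was also low, with 1 to 39 fragments per library in DHO, 1 to 21 in HO and 0 to 8 in WT. Its level was 0.0132 to 0.566 FPKM in DHO (median 0.0529), 0.0132 to 0.350 in HO (median 0.104) and 0 to 0.104 in WT (median 0.0132). The 3 WT libraries without a fragment allow up to 0.0402 to 0.0444 FPKM, the value of 3 fragments. Fasl rose in HO against WT by 0.23 in mean log2(FPKM + 0.5) (two-sided permutation p = 0.00210, adjusted over 6 tests 0.0126), while the groups overlapped. That call was lost within the classes, with 0.17 (exact permutation test, adjusted p = 0.312) in libraries under and 0.30 (exact, adjusted p = 0.0952) in libraries over 1 FPKM of Gm15564, and in limma with no filter on low values (adjusted p = 0.0785). The differences were 0.01 in DHO against HO (permutation p = 0.924, adjusted 0.924) and 0.25 in DHO against WT (permutation p = 0.0354, adjusted 0.106). Without DHO 8 and 9, which had 0.566 and 0.478 FPKM, they were -0.16 (exact permutation, adjusted p = 0.227) and 0.08 (exact permutation, adjusted p = 0.252). The DHO against HO difference in Fasl was -0.09 in libraries under and 0.20 in libraries over 1 FPKM of Gm15564 (exact permutation, adjusted p = 0.462 and 0.610), and the DHO against WT difference was 0.08 under and 0.50 over it (exact permutation, adjusted p = 0.458 and 0.159).

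T cells and cytotoxic lymphocytes, the known sources of Fasl and Lta, were read from 10 and 9 markers. The T cell sum was 9.67 to 49.2 FPKM in DHO, 6.02 to 38.4 in HO and 6.31 to 18.9 in WT libraries, with 38.5 in DHO 8 and 49.2 in DHO 9. The cytotoxic and NK cell sum was 6.92 to 49.6 FPKM in DHO, 6.56 to 52.7 in HO and 1.66 to 6.39 in WT libraries, with 49.6 in DHO 8 and 47.7 in DHO 9. Of the T cell markers 6 passed the filter, of which 2 rose in HO against WT, 1 in DHO against HO and 3 in DHO against WT, and 0 fell. Of the cytotoxic markers 4 passed the filter, of which 3 rose in HO against WT, 0 rose and 1 fell in DHO against HO, and 3 rose in DHO against WT. Some of the tested markers were low in WT, such as Gzma (WT median 0.390 FPKM) and Cd3d (WT median 0.528 FPKM). Such markers can pass the filter through the other groups alone. Counts of markers that rose against WT therefore partly follow from the filter, and markers under it were not tested. No marker of these lists was at 0 in every library. Their part in the Fasl and Lta levels was not tested.

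Tnfsf10, which encodes TRAIL, was the one tested member that was lower in HO than in WT. It was at 2.53 to 25.3 FPKM in DHO libraries (median 4.38), at 0.634 to 3.42 FPKM in HO libraries (median 1.45) and at 1.80 to 4.93 FPKM in WT libraries (median 2.56). The HO and WT ranges overlapped, and so did DHO and HO. DHO 7 had 25.3 FPKM, and the other 9 DHO libraries had at most 6.04. Tnfsf10 fell in HO against WT, with a log2 fold change of -0.78 (SE 0.264, limma adjusted p = 0.00950). It was -0.54 (adjusted p = 0.0505) in libraries under and -1.07 (adjusted p = 0.0238) in libraries over 1 FPKM of Gm15564, so that it missed the threshold in the libraries under 1 FPKM. Tnfsf10 rose in DHO against HO by 1.44 (SE 0.270, limma adjusted p = 2.20e-05), and by 1.19 (adjusted p = 4.99e-06) without DHO 7. Within the classes the rise was 1.02 (adjusted p = 0.00102) under and 2.09 (adjusted p = 0.000788) over 1 FPKM of Gm15564. The DHO against WT difference was 0.66 (SE 0.264, limma adjusted p = 0.0694), or 0.41 (adjusted p = 0.141) without DHO 7. It was 0.47 (adjusted p = 0.303) in libraries under and 1.03 (adjusted p = 0.0583) in libraries over 1 FPKM of Gm15564, and 0.69 (adjusted p = 0.0242), past the threshold, with the class as a term in the fit.

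Epithelial transcripts moved in the same direction as Tnfsf10. All 12 epithelial markers fell in HO against WT and rose in DHO against HO, and their sum was 5309 to 11252 FPKM in DHO, 13.3 to 8007 in HO and 7721 to 10235 in WT libraries. HO 2, the HO library with an epithelial sum within the WT range (8007 FPKM), had the lowest Tnfsf10 of all 31 libraries, 0.634 FPKM. Without HO 2 the HO against WT difference in Tnfsf10 was -0.69 (limma adjusted p = 0.0216). The part of epithelial cells in the Tnfsf10 levels was not tested. Most like Tnfsf10 over the 31 libraries were Tlr3 (0.39), a sensor of double-stranded RNA, Lap3 (0.48) and Rif1 (0.49). In DHO 7 Tlr3 was at 14.4 FPKM and Lap3 at 143 FPKM, where the other 9 DHO libraries had at most 8.71 and 67.7 FPKM.

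Tnfrsf1a, the death domain receptor that recruits TRADD, had the highest median FPKM of the members in HO. It was at 45.1 to 128 FPKM in DHO libraries (median 54.4), at 131 to 209 FPKM in HO libraries (median 158) and at 38.3 to 56.5 FPKM in WT libraries (median 45.7). All HO libraries lay above all DHO and all WT libraries, and DHO 8 (128 FPKM), DHO 9 (109 FPKM) and DHO 7 (94.0 FPKM) lay above the remaining DHO libraries. Tnfrsf1a rose in HO against WT (log2 fold change 1.82, SE 0.149, limma adjusted p = 4.11e-12), with 1.93 in libraries under and 1.71 in libraries over 1 FPKM of Gm15564. Tnfrsf1a fell in DHO against HO, with a log2 fold change of -1.32 (SE 0.153, limma adjusted p = 6.95e-09). The fall was -1.78 (adjusted p = 4.21e-11) under and -0.71 (adjusted p = 0.0176) over 1 FPKM of Gm15564. Tnfrsf1a rose in DHO against WT by 0.50 (SE 0.149, limma adjusted p = 0.0187), but without DHO 8 and 9 the difference was 0.28 (adjusted p = 0.0972). In that comparison it was 0.16 (adjusted p = 0.396) under and 0.9999 (adjusted p = 0.00643) over 1 FPKM of Gm15564. Most like Tnfrsf1a were Myd88 (0.17), Tfe3 (0.21) and Ywhag (0.24).

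Tnfrsf1b, the receptor without a death domain, had the largest change of the receptors. It was at 8.06 to 58.3 FPKM in DHO libraries (median 12.1), at 41.7 to 145 FPKM in HO libraries (median 86.3) and at 3.72 to 7.32 FPKM in WT libraries (median 5.19). The WT libraries lay below all others, and DHO 8 (58.3 FPKM) was the one DHO library within the HO range. Tnfrsf1b rose in HO against WT (log2 fold change 3.87, SE 0.265, limma adjusted p = 9.20e-14), with 3.88 in either class of libraries. Tnfrsf1b fell in DHO against HO, with a log2 fold change of -2.45 (SE 0.271, limma adjusted p = 2.79e-09), and with -3.09 (adjusted p = 3.61e-09) under and -1.55 (adjusted p = 0.00397) over 1 FPKM of Gm15564. Tnfrsf1b rose in DHO against WT by 1.42 (SE 0.265, limma adjusted p = 0.000828). Without DHO 8 and 9 the rise was 1.01 (adjusted p = 0.000998), and the other 8 DHO libraries (8.06 to 16.6 FPKM) still lay above all 11 WT libraries. Within the classes it was 0.79 (adjusted p = 0.124) under and 2.33 (adjusted p = 0.00192) over 1 FPKM of Gm15564, so that the pooled call did not hold in the libraries under 1 FPKM alone.

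Monocyte and macrophage markers rose in DHO against WT for 6 of 10 and fell for 0, and without DHO 8 and 9 their sum was 365 to 488 FPKM in DHO against 183 to 467 in WT libraries. Their part in the Tnfrsf1b level was not tested. Genes most like Tnfrsf1b were Il4ra (0.33), Ccdc88b (0.37) and Cd300c2 (0.39).

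Ltbr, the lymphotoxin receptor of stromal and epithelial cells, moved least of the receptors. It was at 44.6 to 67.3 FPKM in DHO libraries (median 56.5), at 45.7 to 87.4 FPKM in HO libraries (median 65.1) and at 36.3 to 64.0 FPKM in WT libraries (median 49.5), and the groups overlapped. Ltbr rose in HO against WT (log2 fold change 0.42, SE 0.108, limma adjusted p = 0.000859), with 0.51 in libraries under and 0.37 in libraries over 1 FPKM of Gm15564. The difference was -0.19 (SE 0.110, limma adjusted p = 0.127) in DHO against HO and 0.23 (SE 0.108, limma adjusted p = 0.117) in DHO against WT. Within the classes the DHO against HO difference in Ltbr was -0.36 (limma adjusted p = 0.00141), past the threshold, in libraries under and -0.05 (adjusted p = 0.691) in libraries over 1 FPKM of Gm15564. The DHO against WT difference was 0.15 (limma adjusted p = 0.395) under and 0.31 (adjusted p = 0.0388), past the threshold, over it. With the Gm15564 class as a term in the fit the pooled differences were -0.23 (adjusted p = 0.00560) and 0.21 (adjusted p = 0.0189), both past the threshold, and with median-of-ratios scaling the DHO against HO difference was -0.21 (adjusted p = 0.0399). Levels of Ltbr did not overlap between the classes in HO (68.8 to 87.4 FPKM in the 5 under and 45.7 to 61.3 in the 5 over 1 FPKM of Gm15564) or in WT (49.5 to 64.0 in the 6 under and 36.3 to 48.1 in the 5 over). Tradd lay apart between the classes in WT too (89.1 to 97.5 FPKM under and 45.9 to 54.1 over). The share of all genes that did so was not counted, so the split cannot be read as particular to Ltbr. Most like Ltbr were Dda1 (0.13), Fam207a (0.13) and Eif2b2 (0.13).

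Fas, the receptor of Fas ligand, was higher in HO than in either other group. It was at 2.81 to 11.8 FPKM in DHO libraries (median 5.23), at 12.8 to 27.2 FPKM in HO libraries (median 21.02) and at 3.43 to 5.67 FPKM in WT libraries (median 4.52). All HO libraries lay above all others, with HO 2 (12.8 FPKM) lowest in HO and DHO 8 (11.8 FPKM) highest in DHO. Fas rose in HO against WT (log2 fold change 2.08, SE 0.168, limma adjusted p = 2.77e-12), with 2.02 under and 2.15 over 1 FPKM of Gm15564. Fas fell in DHO against HO, with a log2 fold change of -1.80 (SE 0.172, limma adjusted p = 1.74e-10), and with -1.97 (adjusted p = 8.00e-08) under and -1.49 (adjusted p = 0.000208) over 1 FPKM. The DHO against WT difference was 0.28 (SE 0.168, limma adjusted p = 0.229), with 0.04 (adjusted p = 0.939) under and 0.65 (adjusted p = 0.0437) over 1 FPKM. Most like Fas were Atp1b3 (0.25), Slc39a6 (0.27) and Myo5a (0.28).

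Markers of stromal cells, which are known to carry Ltbr, Tnfrsf1a and Fas, moved in the same direction as all of these in HO against WT and as Tnfrsf1a and Fas in DHO against HO, except the markers of smooth muscle. Of 8 fibroblast markers, 7 rose and 0 fell in HO against WT, 0 rose and 8 fell in DHO against HO, and 0 rose and 1 fell in DHO against WT. Their summed level was 349 to 1858 FPKM in DHO, 1211 to 3653 in HO and 478 to 1066 in WT libraries, with 1858 in DHO 8, 1204 in DHO 9 and at most 615 in the other DHO libraries. Of 8 endothelial markers, 7 rose and 0 fell in HO against WT, all 8 fell in DHO against HO, and 0 were called in DHO against WT. The endothelial sum was 23.9 to 104 FPKM in DHO, 117 to 297 in HO and 31.6 to 58.9 in WT libraries, with 104 in DHO 8, 76.5 in DHO 9 and at most 46.8 in the other DHO libraries. All 8 smooth muscle markers fell in HO against WT, 5 rose and 0 fell in DHO against HO, and 0 rose and 7 fell in DHO against WT. The part of these cells in the receptor levels was not tested.

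Tnfrsf10b, the mouse TRAIL receptor, had a smaller rise than Fas. It was at 2.11 to 5.11 FPKM in DHO libraries (median 2.98), at 4.36 to 5.99 FPKM in HO libraries (median 5.42) and at 1.92 to 2.99 FPKM in WT libraries (median 2.44). All HO libraries lay above all WT libraries, and DHO 8 (5.11 FPKM) and DHO 9 (4.90 FPKM) lay within the HO range. Tnfrsf10b rose in HO against WT (log2 fold change 0.999, SE 0.110, limma adjusted p = 1.60e-09), with 1.01 under and 0.99 over 1 FPKM of Gm15564. Tnfrsf10b fell in DHO against HO, with a log2 fold change of -0.70 (SE 0.112, limma adjusted p = 2.27e-06), and with -0.93 (adjusted p = 9.26e-07) under and -0.38 (adjusted p = 0.0719) over 1 FPKM. Tnfrsf10b was called higher in DHO against WT at 0.30 (SE 0.110, limma adjusted p = 0.0472), and that call was lost without DHO 8 (0.23, adjusted p = 0.114), without DHO 9 (0.24, adjusted p = 0.115), without DHO 7 (0.30, adjusted p = 0.0677), under TPM (adjusted p = 0.0502) and median-of-ratios scaling (adjusted p = 0.0530), and with no filter on low values (adjusted p = 0.0761). Within the classes this difference was 0.09 (limma adjusted p = 0.725) in libraries under and 0.62 (adjusted p = 0.0144) in libraries over 1 FPKM of Gm15564. Most like Tnfrsf10b were Agtpbp1 (0.19), Cers2 (0.19) and Ikbkb (0.20).

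**Figure D3:**
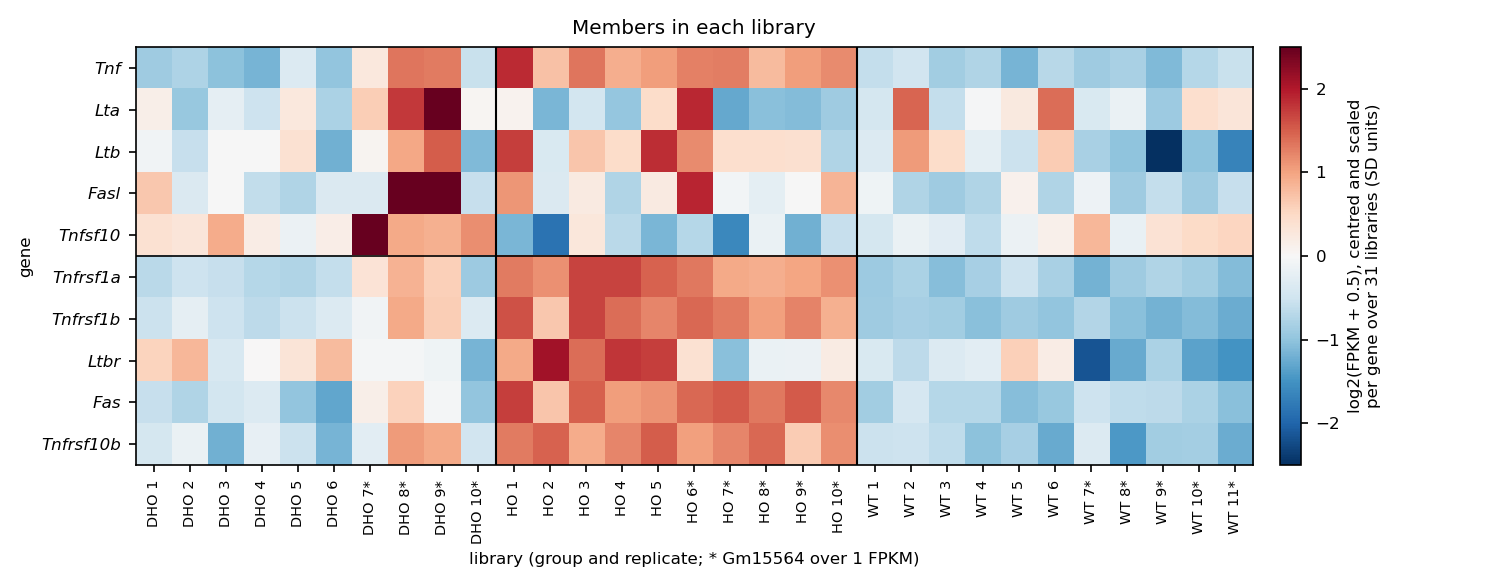
Log2(FPKM + 0.5) of each member, centred and scaled to its SD over the 31 libraries (colour), with libraries in columns by group, ligands above and receptors below the line, and a star for libraries over 1 FPKM of Gm15564. Tnf, Tnfrsf1a, Tnfrsf1b, Fas and Tnfrsf10b are high in every HO library, and Lta and Fasl are highest in DHO 8 or DHO 9.

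FPKM values are per length, so the members can be ordered by level within a group as far as the gene lengths used are right. The lengths recovered from the values differed from those of a GENCODE annotation, as with 1095 against 1516 bases for Ltb. Close orders are therefore uncertain. In DHO the order by median was Ltbr, Tnfrsf1a, Tnfrsf1b, Ltb, Fas, Tnfsf10, Tnfrsf10b, Tnf, Lta and Fasl. In HO it was Tnfrsf1a, Tnfrsf1b, Ltbr, Fas, Tnf, Ltb, Tnfrsf10b, Tnfsf10, Fasl and Lta. In WT the order was as in DHO but for Ltb, which stood above Tnfrsf1b. Many neighbours in these orders overlapped. In WT, Ltbr and Tnfrsf1a (medians 49.5 and 45.7 FPKM) overlapped, and their lowest libraries (36.3 and 38.3 FPKM) lay above every library of the 8 other members. Ltb, Tnfrsf1b, Fas and Tnfsf10 overlapped in WT, as did Tnfsf10 and Tnfrsf10b, whereas all Tnf values (at most 1.17 FPKM) lay below all Tnfrsf10b values (at least 1.92 FPKM). In HO, Tnfrsf1a (131 to 209 FPKM) and Tnfrsf1b (41.7 to 145 FPKM) overlapped, and Fas, Tnf and Ltb overlapped as well.

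Ratios within a library do not depend on its total but do depend on the gene lengths used, and they are given as descriptions. Counts of libraries above a ratio of 1 share this limit. Tnf per Tnfrsf1a had a median of 0.0157 in DHO, 0.118 in HO and 0.0126 in WT libraries, and at most 0.342 in any. Tnfrsf1b per Tnfrsf1a was 0.160 to 0.454 in DHO (median 0.208), 0.276 to 0.767 in HO (median 0.548) and 0.0828 to 0.191 in WT (median 0.107). By the deposited values the death domain receptor thus exceeded Tnfrsf1b in all 31 libraries. That order depends on the gene lengths behind the values, 2155 bases for Tnfrsf1a and 4926 for Tnfrsf1b. A GENCODE annotation gives 2591 and 3818 bases, which would raise this ratio, and the order was not tested with them. Tnfrsf1a per Ltbr was above 1 in 5 of 10 DHO, 10 of 10 HO and 4 of 11 WT libraries. Ltb per Tnf was above 1 in 9 of 10 DHO, 2 of 10 HO and 11 of 11 WT libraries, with medians of 8.53 in DHO, 0.677 in HO and 10.98 in WT. Tnfsf10 exceeded Tnfrsf10b in 9 of 10 DHO, 0 of 10 HO and 7 of 11 WT libraries, with a median ratio of 1.18 in DHO, 0.293 in HO and 1.30 in WT. In DHO 7 this ratio was 8.19. Fas per Tnfrsf10b had a median of 1.63 in DHO, 3.94 in HO and 1.74 in WT libraries.

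**Figure D4:**
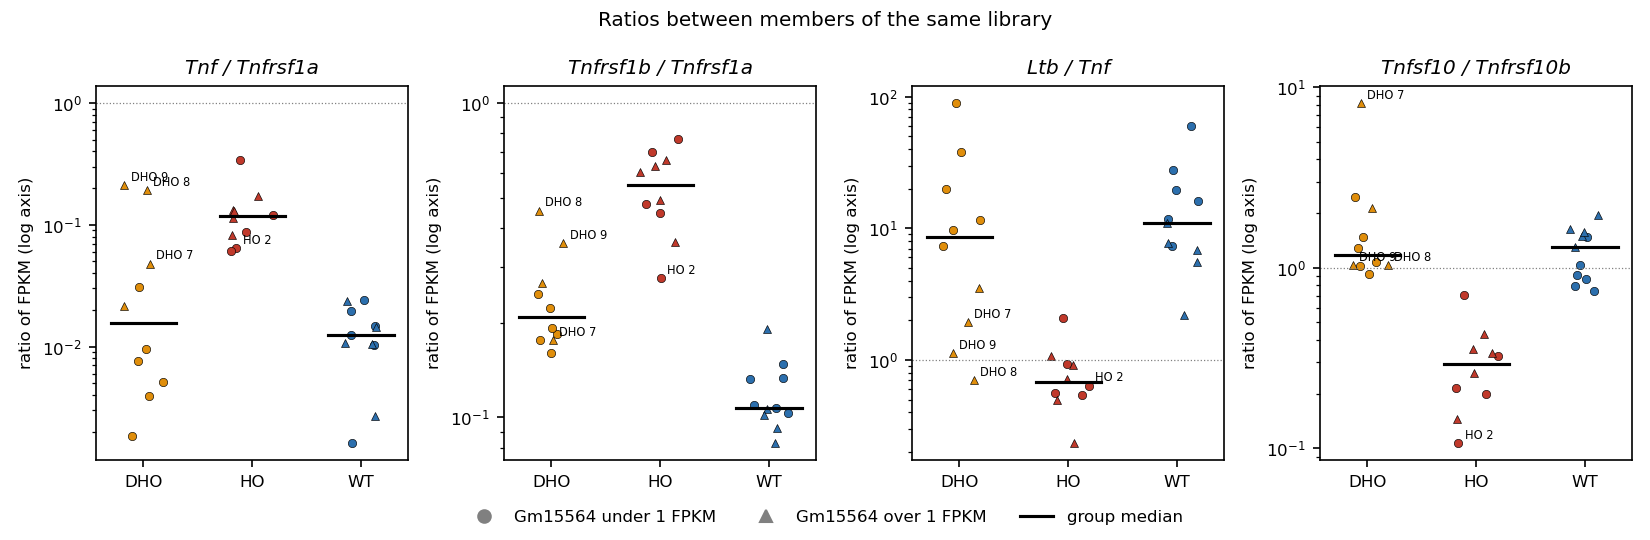
Ratio of FPKM (log axis) between pairs of members in each library, with a bar at the group median and a dotted line at a ratio of 1. Ltb exceeds Tnf in all 11 WT libraries and in 2 of 10 HO libraries, and Tnfsf10 is below Tnfrsf10b in all 10 HO libraries.

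Effects differed between the classes of libraries where DHO was compared. The difference between classes in the group effect was tested as an interaction in limma over all 12812 genes. For DHO against HO the effect (libraries over minus libraries under 1 FPKM of Gm15564) differed by 3.29 in Tnf (adjusted p = 0.0266), 1.07 in Tnfrsf1a (adjusted p = 0.0240) and 1.54 in Tnfrsf1b (adjusted p = 0.0479). For DHO against WT it differed by 3.28 in Tnf (limma adjusted p = 0.0221), 2.30 in Ltb (adjusted p = 0.0378), 0.84 in Tnfrsf1a (adjusted p = 0.0304) and 1.54 in Tnfrsf1b (adjusted p = 0.0344). Over all genes the interaction was called for 568 in DHO against HO and 1256 in DHO against WT, and for 0 in HO against WT (377 at an unadjusted p under 0.05). Without DHO 8 and 9 limma called the interaction for 0 genes in any comparison, with 551 in HO against WT, 1180 in DHO against HO and 762 in DHO against WT at an unadjusted p under 0.05. Only DHO 7 and DHO 10 were then left in the DHO group over 1 FPKM. Tnf in the 4 DHO libraries over 1 FPKM was 4.52, 24.7, 23.3 and 0.980 FPKM in DHO 7, 8, 9 and 10, against 0.0928 to 1.51 FPKM in the 6 under it. These 4 libraries therefore did not share 1 level.

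**Figure D5:**
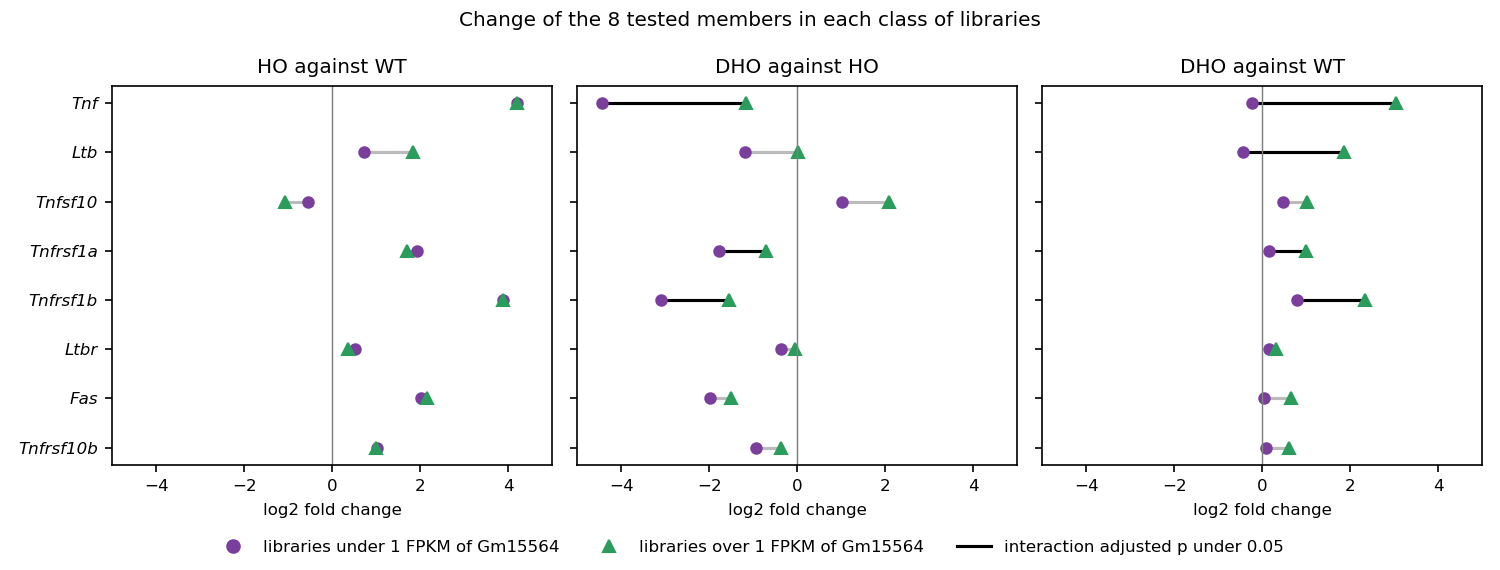
Log2 fold change of the 8 tested members in libraries under (circles) and over (triangles) 1 FPKM of Gm15564 in each comparison, joined in black where the interaction had an adjusted p under 0.05. The classes nearly coincide in HO against WT for Tnf and Tnfrsf1b and lie apart for both in DHO against HO and DHO against WT.

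Where HO was compared, the adaptors and enzymes that act at these receptors had smaller median changes than the 8 tested members. Among the related lists, only the other TNF superfamily ligands and the TNF response genes had larger ones. In HO against WT and DHO against HO, the medians were 2.42 and -2.17 for the other TNF superfamily ligands tested. They were 2.96 and -2.54 for TNF response genes and 1.35 and -0.89 for other TNF receptor genes. Of 20 receptor-proximal genes tested, 13 rose and 3 fell in HO against WT (median log2 fold change 0.39). Among them were Birc2, a ubiquitin ligase of the TNFR1 complex (0.93, SE 0.0960, limma adjusted p = 4.81e-10), the adaptor Traf1 (2.61, SE 0.274, adjusted p = 6.45e-10) and Tnfaip3, the ubiquitin editor A20 (2.38, SE 0.260, adjusted p = 1.51e-09). Of the same genes 4 rose and 13 fell in DHO against HO (median -0.33), including Tradd itself (-2.72, SE 0.228, limma adjusted p = 1.31e-11), the A20 partner Tnip1 (-1.57, adjusted p = 1.78e-11) and Birc2 (-0.86, adjusted p = 5.04e-09). The DHO against WT comparison had 1 that rose, Casp8 (0.59, SE 0.138, limma adjusted p = 0.00452), the initiator caspase of the death receptors, and 2 fell, Tradd (-4.47, adjusted p = 3.90e-15) and Tnip1 (-0.40, adjusted p = 0.0290).

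Genes that shed TNF from the cell or degrade its mRNA were read from 10 genes. Of these, 5 rose and 2 fell in HO against WT (median 1.18), including the RNase Zc3h12a (2.78, limma adjusted p = 1.93e-14), Rhbdf2, which carries the sheddase to the surface (2.26, adjusted p = 3.15e-12), and the sheddase Adam17 (1.54, adjusted p = 2.23e-10). Between DHO and HO, 2 rose and 5 fell in DHO (median -0.88), with Rhbdf2 at -1.86 (limma adjusted p = 4.74e-10), Zc3h12a at -1.73 (adjusted p = 7.88e-10) and the mRNA decay factor Zfp36l1 at -1.68 (adjusted p = 4.87e-07). Higher in DHO than in WT were 2, Zc3h12a (1.05, limma adjusted p = 0.000313) and Adam17 (0.55, adjusted p = 0.0122), and 0 were lower (median 0.12).

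Genes known to respond to TNF rose and fell in the same comparisons as Tnf, and 3 of them, Traf1, Birc3 and Tnfaip3, were counted above too. Of 16 tested, 15 rose and 1 fell in HO against WT (median 2.96), among them the endothelial adhesion molecule Sele (3.97, limma adjusted p = 7.32e-15), the NF-kB inhibitor Nfkbia (2.996, adjusted p = 4.03e-13) and the chemokine Ccl2 (7.40, adjusted p = 5.04e-12). Of these, 0 rose and 15 fell in DHO against HO (median -2.54), including Sele (-3.50, limma adjusted p = 3.63e-13), Nfkbia (-2.995, adjusted p = 1.53e-12) and the chemokine Cxcl2 (-7.10, adjusted p = 3.64e-09). Sele, with medians of 7.22 FPKM in HO, 0.0630 in DHO and 0 in WT, could pass the filter through HO alone. Of the 16, 4 rose and 1 fell in DHO against WT (median 0.44). The one that fell was Ccl20, an epithelial chemokine (-2.32, limma adjusted p = 0.000142), and Tnfaip8 (0.41, adjusted p = 0.0256) and Ccl2 (1.89, adjusted p = 0.0284) were among those that rose. Their sum in DHO 8 (1679 FPKM) and DHO 9 (710 FPKM) exceeded the 147 to 219 FPKM of the other DHO libraries. The monocyte and macrophage, neutrophil, fibroblast and endothelial sums given above moved in the same direction in HO against WT and in DHO against HO, and their part in the levels of these genes was not tested.

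Components and targets of the lymphotoxin receptor and the noncanonical NF-kB pathway were also followed. Of this list, Vcam1 was counted among the TNF response genes too, and Tnfsf13b among the other TNF superfamily ligands. Of 10 genes, 5 rose and 2 fell in HO against WT (median 0.79), including the B cell chemokine Cxcl13 (5.57, limma adjusted p = 6.94e-12), the homing receptor ligand Madcam1 (3.37, adjusted p = 3.50e-10) and Nfkb2 (1.58, adjusted p = 1.32e-09). Of the same 10, 2 rose and 6 fell in DHO against HO (median -0.72), with Cxcl13 at -4.52 (limma adjusted p = 1.31e-09) and Madcam1 at -2.72 (adjusted p = 4.98e-08). Between DHO and WT, 0 of 10 were called, and Cxcl13 was at 1.05 (limma adjusted p = 0.105), Vcam1 at 0.67 (adjusted p = 0.135) and Madcam1 at 0.65 (adjusted p = 0.174).

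Of 13 other TNF superfamily ligands, 6 passed the filter, of which 4 rose and 1 fell in HO against WT. The ligands under the filter were not tested. A gene low elsewhere, such as Tnfsf14 (median 0.237 FPKM in DHO), can pass through the 10 HO libraries alone. These counts therefore partly follow from the filter. The median log2 fold change of the 6 was 2.42 in HO against WT, -2.17 in DHO against HO and 0.40 in DHO against WT. Tnfsf9, the 4-1BB ligand, was at a median of 11.7 FPKM in HO and 0.487 in WT libraries (limma adjusted p = 5.47e-13). Tnfsf14, also known as LIGHT and the second ligand of Ltbr, was at 7.10 FPKM in HO and 0.0941 in WT (limma adjusted p = 5.74e-13), and Tnfsf11, the RANK ligand, at 14.9 FPKM in HO and 0.366 in WT (adjusted p = 1.48e-10). Between DHO and HO, 1 rose in DHO, the B cell factor Tnfsf13 (2.18, limma adjusted p = 4.31e-09), and 4 fell, with Tnfsf14 at -2.97 (adjusted p = 6.11e-11) and Tnfsf9 at -2.87 (adjusted p = 1.89e-10). The DHO against WT comparison called 1 of the 6, Tnfsf9 (0.74, limma adjusted p = 0.0480), which was higher.

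Of 23 other TNF receptor superfamily genes, 17 passed the filter, and 11 rose and 4 fell in HO against WT. They include Relt (2.75, limma adjusted p = 1.14e-14), the 4-1BB gene Tnfrsf9 (4.49, adjusted p = 5.36e-12) and the decoy TRAIL receptor Tnfrsf22 (1.36, adjusted p = 1.74e-10). Of the 17, 4 rose and 9 fell in DHO against HO, with Relt at -2.26 (limma adjusted p = 2.23e-12), Tnfrsf22 at -1.22 (adjusted p = 3.54e-09) and the RANK gene Tnfrsf11a, which rose, at 1.52 (adjusted p = 3.49e-09). Higher in DHO than in WT were 7, and 0 were lower, led by Tnfrsf8, the CD30 gene (1.32, limma adjusted p = 3.10e-05), and including the decoy TRAIL receptor Tnfrsf23 (1.11, adjusted p = 0.0296) and Tnfrsf9 (1.10, adjusted p = 0.0352). Median log2 fold changes of the 17 were 1.35 in HO against WT, -0.89 in DHO against HO and 0.49 in DHO against WT. Receptor genes low in WT and DHO, such as Relt (medians 0.127 and 0.324 FPKM), can pass the filter through HO alone. These lists are given by their counts and medians, to be read beside the shares of all genes. In HO against WT 33% of all genes were called higher and 38.4% lower. The shares were 39% and 29.7% in DHO against HO and 12.5% and 8.7% in DHO against WT.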

How the data were processed

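Per the labels, colon RNA was extracted with TRIzol and the libraries were built with the VAHTS Universal V6 kit. The submitters' processing notes name fastp, HISAT2, HTSeq and the build mm10. Sources used here give no versions, annotation or strand setting. The authors deposited 1 table of FPKM values, named as such from the values. Each library's total was recovered from its low values, and 51 to 115 genes agreed on each total. For all 10 members a gene length made every value whole within 0.03 fragments plus a small allowance that grew with the count. These lengths differed from the exon lengths of a GENCODE annotation, as with 4926 against 3818 bases for Tnfrsf1b and 3179 against 5451 for Tnfrsf10b.

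Libraries were grouped by the genotype label. Genes reaching 1 FPKM in 10 or more libraries entered a fit of log2(FPKM + 0.5) in limma 3.58.1 (R 4.3.3), which held a mean for each of the 3 groups, with a trend in the variance and robust moderation. It was first run on simulated data with the mean and spread of WT in every group and few genes changed. The real groups differed in spread (SD of Tnf 9.76 FPKM in DHO and 0.333 in WT), and most genes were called in HO against WT. That run therefore does not show how the fit performs on data like these. Lta and Fasl were compared by permutation in SciPy 1.17.1. No pair of libraries was identical, and the highest correlation was 0.993. Intervals and floors cover counting error only. Reads shared between paralogs may be split by the counting, and with no stated strand setting, overlapping genes are uncertain. Alternatives were other pseudocounts, filters, scalings and moderation, leaving out libraries that stand apart, and the Gm15564 classes. The members, gene lists and marker lists were chosen with earlier results of these data known. Named genes are all members, the 3 genes most like each tested member, and the 3 members of each list with the smallest p in a comparison.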

Additional observations from a re-analysis of the deposited data

Results flagged for a closer look

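Tnfsf10 in DHO 7 stood far from the other DHO libraries. It was at 25.3 FPKM, and on the scale of log2(FPKM + 0.5) its gap to the next library was 0.641 of the range of the group, above Dixon's critical value for 10 libraries. Chance passes that critical value, by any margin, in about 1 of 20 groups, and 20 groups were examined. Epithelial markers summed to 9302 FPKM in DHO 7 and neutrophil markers to 34.6 FPKM, and their part in the Tnfsf10 level was not tested.

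The effect of DHO differed between the classes of Gm15564 for 4 members, by the interaction test in limma. Against HO the difference (over minus under 1 FPKM) was 3.29 for Tnf, 1.07 for Tnfrsf1a and 1.54 for Tnfrsf1b. Against WT it was 3.28 for Tnf, 2.30 for Ltb, 0.84 for Tnfrsf1a and 1.54 for Tnfrsf1b. Without DHO 8 and 9 the difference for Tnf was 1.71 against HO (limma adjusted p = 0.4664) and 1.69 against WT (adjusted p = 0.758).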

How the results depend on the processing

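Of 465 values of members under the alternatives, 419 kept their direction and side of the threshold, 21 lost the call, 12 gained one and 13 changed sign, all among differences not called. Signs changed in libraries under 1 FPKM of Gm15564 for DHO against WT in Tnf (-0.23), Ltb (-0.45) and Lta (-0.29) and for DHO against HO in Fasl (-0.0891), and in libraries over 1 FPKM for DHO against HO in Ltb (0.0301). Leaving out single libraries that stand apart gave Fasl in DHO against HO between -0.0700 and 0.0353, and Lta in DHO against WT between -0.0322 and 0.0821. Without DHO 8 and 9 they were -0.16 and -0.12, and with HO 2 also left out (chosen after seeing the data) -0.18 and -0.12. Among all genes, 6566 were higher in HO against WT and 6097 lower in DHO against HO with no filter on low values. Members called lower were 0 in HO against WT in libraries under 1 FPKM of Gm15564, and 3 in DHO against HO in libraries over it. Of all 12812 genes, 8774 were called in the first of these settings, 46.7% of them higher. In the second 7681 were called, 55.8% of them higher. DHO against WT depended most on the libraries. Members called higher were 1 without DHO 8 and 9, 0 in libraries under and 7 in libraries over 1 FPKM of Gm15564, 5 with the class as a term, and 1 without HO 2 and DHO 8 and 9. The counts of all genes higher and lower were 792 and 514, 48 and 20, 2701 and 2401, 2458 and 2092, and 1052 and 693 in the same order. With HO 2, DHO 7, DHO 8 or DHO 9 left out alone, 720 to 1275 genes were lower, the fewest without DHO 9 (720) and DHO 8 (741), and no other library was left out alone. Rescaling to TPM moved the median of all genes in DHO against HO to 0.258, with 65.4% of calls higher instead of 56.7%. The causes of these shifts were not tested beyond the smaller number of libraries. Depth limits Lta and Fasl most. No paired analysis was possible because the replicate numbers follow the order of the samples and pair no libraries across groups.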
